A study of Homo sapiens with 12 samples.

Results

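HCT116 cells in the first hours after release from a double thymidine block were compared with cells 9 and 10 h after release, hours taken here to stand for the first G1 phase after division. The sample labels give the hours and no phase. The members are 4 of the 12 arrays of the series, chosen by treatment and hour: DMSO 0 h and DMSO 2 h on one side, DMSO 9 h and DMSO 10 h on the other. HCT116 is an established human colorectal carcinoma line with functional p53. Cells were held for 19 h in 2 mM thymidine, kept for 9 h in normal medium, held again for 16 h in 2 mM thymidine, washed, and then kept in DMSO and sampled 8 times from 0 to 10 h, or in 0.1 mg/ml nocodazole and sampled hourly from 7 to 10 h. Every culture had therefore passed through both thymidine incubations, and no array of an unblocked culture was used here. Each time and treatment was measured once on an oligonucleotide array that holds 54675 probe sets, so a window of neighbouring hours stood in for replicates and p-values measured the spread between those hours. In RNA of whole cultures, fewer cells in a state and less transcript per cell cannot be told apart.

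Thymidine in excess raises the cellular pool of its triphosphate, which inhibits the reduction of cytidine diphosphate by ribonucleotide reductase and leaves DNA polymerases short of dCTP. Cells stop at the G1/S border or in S phase, and stalled forks can engage the checkpoint kinases and p53, a transcription factor whose targets include CDK inhibitors, negative regulators of p53 itself and apoptosis genes. Because protein and RNA synthesis go on while DNA synthesis is held, cells also grow in size during a block.

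The 9 and 10 h arrays did not read as a pure G1 culture. Of the 34 kept members of a list of mitotic genes, 18 were higher at 9 and 10 h than at 0 and 2 h and 1 was lower, beside 9.26% and 3.46% of all genes. PLK1, the kinase that drives mitotic entry and spindle assembly, read 8.22 at 0 h and 9.12 at 2 h against 11.37 at 9 h and 11.50 at 10 h. At 7 and 8 h it read 11.62 and 11.48, so the level of PLK1 at 9 and 10 h was still near its highest. The list as a whole had come down by then. From the 6 to 8 h mean to the 9 and 10 h mean its median change was -0.43 (log2). Of the 18 higher members, 13 had a higher mean at 6 to 8 h than at 9 and 10 h. CCNE2, the cyclin E2 gene that marks the G1/S transition, read 8.87 at 6 h and 8.78 at 7 h, then 9.31, 10.31 and 10.83 at 8, 9 and 10 h. The 1 mitotic gene called lower was CDK1, whose 9 and 10 h mean minus its 0 and 2 h mean was -1.37 (log2). Of the 34 members, 28 had such a difference above 0 and 6 below it. The later window thus combined a rising CCNE2 with levels of most, but not all, listed mitotic genes above those of the block. It is named below by its hours.

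Across 9130 genes, 1161 (12.7%) differed between the windows at an adjusted p under 0.05 in limma. Of these, 845 (9.26% of all genes) were higher at 9 and 10 h and 316 (3.46%) were lower. Values below are log2, and a difference is the mean at 9 and 10 h minus the mean at 0 and 2 h. The median difference of all genes was 0.09. The array medians over kept probe sets were 8.62 and 8.66 at 0 and 2 h and 8.87 and 9.13 at 9 and 10 h. After quantile normalization, which gives every array the same distribution, 2614 genes (28.6%) were called, 983 (10.8%) higher and 1631 (17.9%) lower, and the median difference was -0.15. The share of called genes that were higher went from 72.8% to 37.6%, while all 316 genes called lower and 717 of the 845 called higher kept their call and direction. Each gene described below as called was called both ways, in the same direction, and the balance of higher against lower calls was set by the scaling. Counts by list below are to be read beside these shares of all genes. The shares are 9.26% higher and 3.46% lower as deposited, and 10.8% and 17.9% after quantile normalization. The calls also needed all of the later window: without the 9 h array or without the 10 h array limma called 0 genes, with 3231 and 2563 genes at an unadjusted p under 0.05. A fit of 3 arrays has 1 residual degree of freedom whichever array is left out, an early or a late one. Why the calls were lost without a late array was not tested. Both arrays of one window lay beyond both of the other for 5790 genes (63.4%), and for every called gene.

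The p53 targets that were called were, with 1 exception, higher just out of the block. Of 42 kept members of the 50 listed, 11 were called lower at 9 and 10 h and 1 was called higher, beside 3.46% and 9.26% of all genes. Their median difference was -0.41 and 32 of the 42 lay below 0, against a median of 0.09 over all genes. After quantile normalization 24 were lower and 1 was higher, beside 17.9% and 10.8% of all genes, with a median of -0.58 against -0.15. With all 8 DMSO arrays in the fit, 7 were lower and 1 was higher.

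CDKN1A, which encodes the CDK inhibitor p21, read 13.98 at 0 h and 13.82 at 2 h, then 12.45 at 9 h and 12.98 at 10 h. Both early arrays lay above both late ones. The difference was -1.19 ± 0.21 (SE), or 2.27-fold lower, with an adjusted p of 0.0218. Between the windows the values were 13.37, 12.98, 12.53 and 12.42 at 4, 6, 7 and 8 h, so the level of the later window was reached by 6 to 8 h. The 10 h array lay above the 9 h array.

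TP53INP1, a stress protein that promotes apoptosis and autophagy, fell by a larger step. It read 9.00 and 7.86 at 0 and 2 h and 5.72 and 6.33 at 9 and 10 h, a difference of -2.40 ± 0.40 (SE, adjusted p = 0.0197 in limma). The early arrays were themselves far apart, and the values between the windows were 7.74, 6.69, 6.18 and 5.79 at 4, 6, 7 and 8 h. ANKRA2, an ankyrin repeat protein, read 8.26 and 8.85 at 0 and 2 h and 6.29 and 5.80 at 9 and 10 h, with a difference of -2.51 ± 0.28 (SE, adjusted p = 0.0089 in limma). Its difference was the largest in the list.

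The ubiquitin ligase gene MDM2, the main negative regulator of p53, had its highest value at 2 h. It read 12.29 and 12.95 at 0 and 2 h and 11.65 and 11.64 at 9 and 10 h, a difference of -0.97 ± 0.24 (SE) whose adjusted p of 0.049 lay just inside the threshold. PMAIP1, the BH3-only apoptosis gene NOXA, also peaked at 2 h, with 13.49 and 14.11 early and 12.21 and 12.69 late (difference -1.35 ± 0.26, SE). GDF15, a secreted stress cytokine, was highest at 0 h instead, with 13.03 and 12.52 early and 11.02 and 11.52 late (difference -1.50 ± 0.25, SE). The order of the 0 and 2 h values thus differed among these genes. With 1 array at each hour that order was not tested.

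SFN, the 14-3-3 sigma gene that holds cyclin B1 with CDK1 out of the nucleus after DNA damage, read 15.14 and 15.19 early and 14.09 and 14.12 late, with the smallest SE of the list (0.12). RRM2B, the p53-inducible small subunit of ribonucleotide reductase, read 10.75 and 10.74 early and 9.81 and 9.87 late (difference -0.90 ± 0.17, SE). SYTL1, a membrane trafficking gene, and APAF1, the scaffold of the apoptosome, had differences of -1.11 and -0.87. KITLG, the ligand of the KIT receptor, was the 1 called member that was higher, with 12.96 and 13.34 early and 13.99 and 14.24 late.

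POLH, the translesion polymerase eta gene, was called lower with 10.51 and 10.28 early and 8.79 and 8.66 late, but its readings need care. Its probe set is one that can bind several transcripts, it read 8.05 at 7 h and 11.46 and 11.61 on the nocodazole 9 and 10 h arrays, and the 4 kept probe sets for the gene ranged from -1.68 to 0.00. The arrays where it was low included those with the highest medians (9.08 at 7 h, 9.13 at 10 h) and those where it was highest had the lowest (8.39 and 8.28). LINC02941, SNX8, PTGER3 and AKR1E2, which are among the 10 largest falls of the whole comparison, were lowest at 10 h among the DMSO arrays and higher on the nocodazole 9 and 10 h arrays than on any DMSO array. The part of the array median in these 5 genes was not tested. Without the probe sets that can bind several transcripts, 10 p53 targets were called lower. GDF15 could not be among them, since its 1 kept probe set is of this kind.

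Members that missed the threshold were chosen for mention after their values were seen. GADD45A, a growth arrest gene, and PLK3, a stress-responsive kinase, had adjusted p of 0.054 and 0.051 with differences of -0.82 and -0.71, and both passed after quantile normalization. SESN2, a regulator of mTORC1, read 8.93 at 0 h and between 6.54 and 6.66 on every later DMSO array, so its difference of -1.20 ± 0.68 (SE, adjusted p = 0.288 in limma) rested on the 0 h array alone. BAX, which encodes a pore-forming apoptosis protein, differed by 0.22 ± 0.20 (SE) and was not called.

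**Figure D1:**
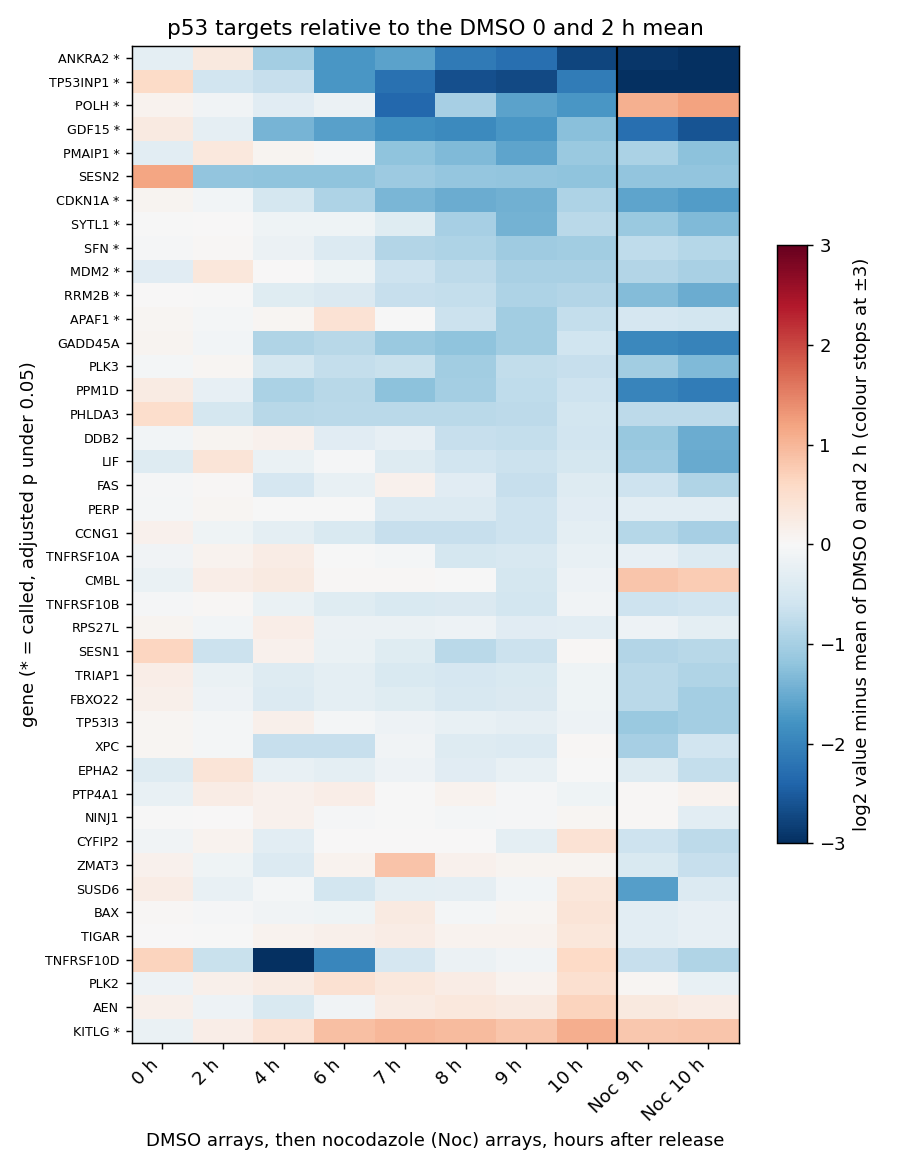
The 42 kept p53 targets in rows, ordered by their difference, with the 8 DMSO arrays in time order and the nocodazole 9 and 10 h arrays at the right. Colour gives the log2 value minus the mean of DMSO 0 and 2 h and stops at ±3, and asterisks mark the 12 called genes. Most upper rows turn blue by 6 to 8 h, and POLH is the called row that turns red under nocodazole.

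The list of CDK inhibitors and G1 cyclins held calls in both directions. Of 10 kept members 4 were lower at 9 and 10 h (40.0%, beside 3.46% of all genes: CCNG2, CDKN1A, CDKN1B and CDKN1C). CCND1 was the 1 higher member (10.0%, beside 9.26%). After quantile normalization 5 were lower and 2 higher, beside 17.9% and 10.8% of all genes. CCND3, the other kept D-type cyclin gene, had a difference of -0.44 that was not called as deposited (adjusted p = 0.199 in limma) and was called lower after quantile normalization. The inhibitor genes CDKN2A and CDKN2D, with differences of -0.11 and 0.03, were called neither way.

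CCNG2, the unconventional cyclin G2 that opposes cell cycle progression, had the largest fall of all 9130 genes. It read 8.60 at 0 h, 10.39 at 2 h, 9.02 at 4 h and 9.15 at 6 h, then 6.55, 5.40, 5.06 and 5.24 at 7, 8, 9 and 10 h. The difference was -4.35 ± 0.54 (SE, adjusted p = 0.0112 in limma), or 20.3-fold lower, and its 3 kept probe sets, of which the brightest was fitted, had differences from -4.35 to -2.45. Its level stayed high through 6 h and dropped between 6 and 8 h.

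CDKN1B, which encodes p27, followed a similar course, with 10.70, 11.59, 11.50 and 11.41 at 0, 2, 4 and 6 h and 10.26, 10.14, 9.93 and 9.92 at 7, 8, 9 and 10 h. Its difference was -1.22 ± 0.30 (SE) with an adjusted p of 0.0493, just inside the threshold, and 0.11 with all 8 DMSO arrays in the fit. CDKN1C, the p57 gene, read 5.79 and 5.29 early and 4.39 and 4.41 late. CCND1, the cyclin D1 gene that links growth signals to the G1 kinases, rose from 12.87 and 12.96 to 13.73 and 13.97, a difference of 0.93 ± 0.15 (SE, adjusted p = 0.0184 in limma). It had read 13.68 by 6 h.

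**Figure D2:**
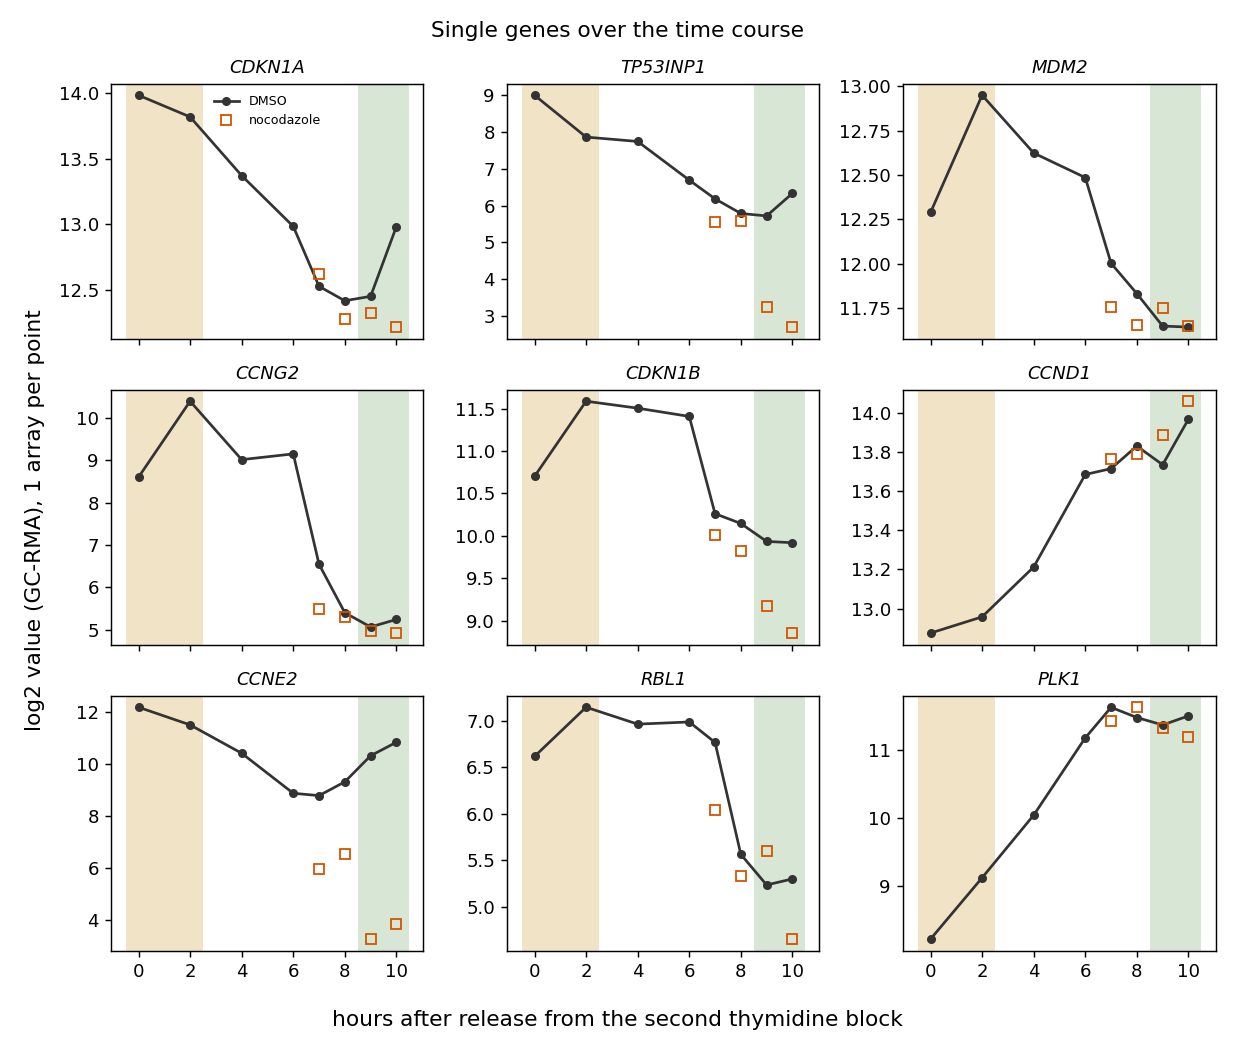
Log2 values of 9 genes against hours after release, 1 array per point, with DMSO as a line and nocodazole as open squares; the tan band marks the 0 and 2 h window and the green band the 9 and 10 h window. CDKN1A and TP53INP1 decline from 0 h, CCNG2 and CDKN1B drop after 6 h, and CCNE2 falls and rises again only under DMSO.

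Of 16 kept deoxynucleotide synthesis genes 2 were lower (12.5%, beside 3.46% of all genes) and 1 was higher, with a median of -0.15 against 0.09 over all genes, and after quantile normalization 5 were lower and 2 higher. The lower ones were RRM2B, already described, and DCK, the deoxycytidine kinase that salvages deoxycytidine. DCK read 11.07 and 11.13 early and 10.06 and 10.29 late (difference -0.93 ± 0.18, SE). DCTD, the deaminase that turns dCMP into dUMP, rose from 10.05 and 9.93 to 10.68 and 10.99.

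The replicative core of that list was not called. RRM1 and RRM2, the large and small subunits of ribonucleotide reductase, differed by -0.60 ± 0.20 and -0.39 ± 0.15 (SE), with adjusted p of 0.101 and 0.147 in limma. TYMS, the thymidylate synthase gene, differed by -0.12 ± 0.14 and TK1, the cytosolic thymidine kinase gene, by -0.16 ± 0.18 (SE). After quantile normalization RRM1 and RRM2 passed the threshold as lower, while TYMS and TK1 did not pass it. Of 15 genes of purine and pyrimidine synthesis 2 were higher (13.3%, beside 9.26% of all genes) and 0 lower. They were PPAT, the committed step of purine synthesis, with a difference of 1.05 ± 0.24 (SE), and PFAS, a later step, with 0.97 ± 0.18 (SE). Both genes were also called after quantile normalization, which called 3 members higher and 0 lower.

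Among 18 G1/S regulators and E2F targets, 4 were lower (22.2%, beside 3.46% of all genes) and 1 was higher (5.6%, beside 9.26%). After quantile normalization 9 were lower and 2 higher, beside 17.9% and 10.8% of all genes. RBL1, the pocket protein p107, read 6.62 and 7.15 early and 5.24 and 5.30 late (difference -1.61 ± 0.22, SE, adjusted p = 0.0132 in limma). It had held between 6.77 and 6.99 from 4 to 7 h and dropped to 5.57 at 8 h. CCNE2 read 12.18 and 11.50 early and 10.31 and 10.83 late, so its difference of -1.27 ± 0.29 (SE, adjusted p = 0.0408 in limma) was the remainder of a deeper fall that had already turned. The second kept CCNE2 probe set differed by -0.26 and was not fitted. On the nocodazole arrays CCNE2 read 5.96, 6.55, 3.26 and 3.83 at 7, 8, 9 and 10 h, below every DMSO array.

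RB1, the retinoblastoma gene, differed by -0.997 ± 0.175 (SE), though its second kept probe set, at low values, differed by 0.63. CDK2, the partner of cyclin E, differed by -0.83 ± 0.17 and E2F3, an activating E2F, by 1.10 ± 0.24 (SE). CCNE1, by contrast with CCNE2, read 11.39 and 10.30 early and 10.65 and 11.08 late, and its difference of 0.02 ± 0.37 (SE) was not called. The difference between the 2 cyclin E genes was not tested.

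The S phase genes that were called were mostly lower at 9 and 10 h. Of 64 kept genes that the study's cell cycle signature (CCS) assigned to S phase, 13 were lower (20.3%, beside 3.46% of all genes). One further member was higher (1.6%, beside 9.26%), and the median was -0.40. After quantile normalization 40 were lower and 1 higher, beside 17.9% and 10.8% of all genes. The study chose these genes outside the present arrays, for periodic expression in another cell line and for higher expression in cycling than in serum-starved fibroblasts. CENPQ and CENPU, centromere proteins, differed by -1.61 and -1.15, and RFC4, a subunit of the clamp loader, by -1.02. Of 25 replication fork genes 4 were lower (16.0%, beside 3.46% of all genes) and 0 higher: RFC4, POLA2, FEN1 and PCNA. After quantile normalization 11 of the 25 were lower, beside 17.9% of all genes. PCNA, the sliding clamp, read 14.48 on both early arrays and 13.66 at 9 h, with a mean of 13.83 over both late arrays (difference -0.65 ± 0.16, SE).

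Origin licensing genes were called about as often as genes in general. Of 23 members 2 were higher (8.7%, beside 9.26% of all genes: ORC5 and ORC2, subunits of the origin recognition complex) and 1 was lower (4.3%, beside 3.46%: CDC45, a helicase cofactor), with a median of 0.04. After quantile normalization 2 were higher and 5 lower. MCM2, a subunit of the replicative helicase, read 12.34 and 12.24 early and 12.19 and 12.64 late, and CDC6, the loader of that helicase, read 11.54 and 11.52 early and 11.21 and 11.80 late. Neither was called. The genes assigned by the study to G1/S were not called in either direction (0 of 19, limma), with 3 higher and 2 lower at an unadjusted p under 0.05. After quantile normalization 5 of these G1/S genes were lower, beside 17.9% of all genes. DNA damage and recombination genes had 2 of 19 called, both lower (10.5%, beside 3.46% of all genes). Among them was BRIP1, a helicase that works with BRCA1, with -1.58. The second kept BRIP1 probe set differed by 0.51. After quantile normalization 10 of these 19 were lower, beside 17.9% of all genes. Only 4 of 20 listed replication histone genes were kept, and limma called 0 of them, also at an unadjusted p under 0.05.

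**Figure D3:**
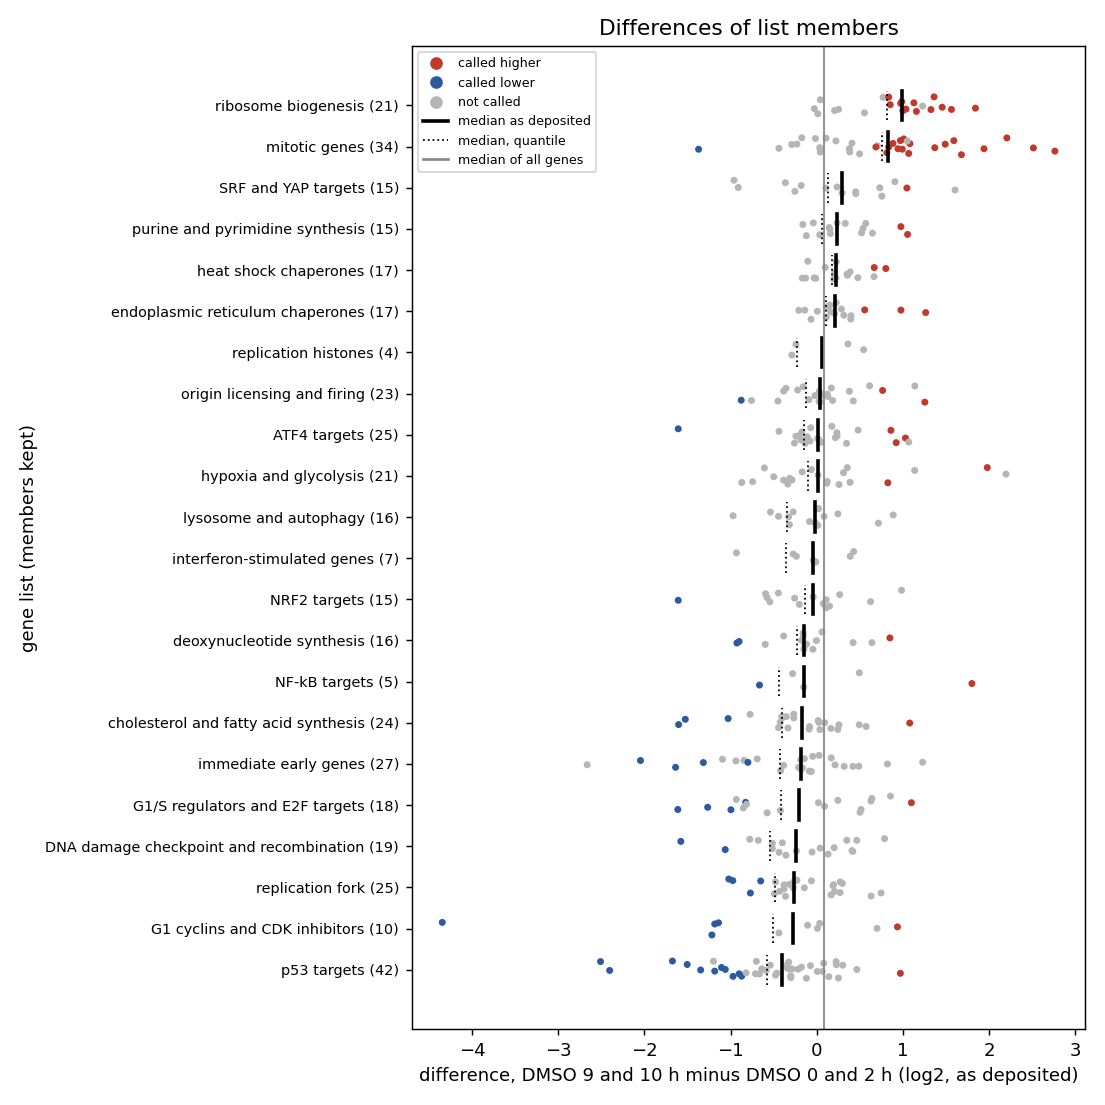
Differences of the members of 22 gene lists, 1 point per gene, with the number of members kept in parentheses. Thick bars are list medians as deposited, dotted bars list medians after quantile normalization, and the grey line is the median of all genes. Ribosome biogenesis (median 0.98) and mitotic genes (0.82) lie farthest right, and p53 targets (-0.41) lie farthest left.

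Ribosome biogenesis genes were higher at 9 and 10 h. Of 21 kept members 13 were called higher (61.9%, beside 9.26% of all genes) and 0 lower. Of the 21 differences 20 lay above 0, and the median was 0.98 against 0.09 over all genes. After quantile normalization 15 were higher and 0 lower, with a median of 0.81. Without the 0 h array 7 were called and without the 2 h array 11.

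POLR1A, the large subunit of RNA polymerase I, read 6.62 and 6.33 early and 8.15 and 8.47 late, a difference of 1.84 ± 0.21 (SE, adjusted p = 0.0091 in limma) or 3.58-fold. POLR1B, its second subunit, read 10.01 and 10.16 early and 11.29 and 11.60 late, with differences above 0 in all 4 kept probe sets. NOP16, a nucleolar factor of the large subunit, rose from 10.41 and 10.53 to 11.85 and 12.21, and PNO1, a factor of the small subunit, from 10.40 and 10.71 to 11.82 and 12.20. The fibrillarin gene FBL and the nucleophosmin gene NPM1, which encode abundant nucleolar proteins, differed by 0.04 ± 0.15 and -0.03 ± 0.10 (SE) and were not called. MYC, a transcription factor that drives this programme, read 11.67 at 0 h, 12.70 at 2 h, 13.28 at 9 h and 13.54 at 10 h, and its difference of 1.23 ± 0.33 (SE) had an adjusted p of 0.0609.

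Mitotic genes had a median of 0.82, and after quantile normalization 19 were higher and 2 lower. Besides PLK1 (difference 2.76 ± 0.31, SE), the largest were CENPE, a kinetochore motor, with 2.51, KIF20A, a motor of cytokinesis, with 2.20, and CDC20, the activator of the anaphase-promoting complex, with 1.94. CDK1, the kinase of cyclin B, went the other way. It read 13.46 and 13.56 early, 13.85 at 6 h, and 12.26 and 12.02 at 9 and 10 h (difference -1.37 ± 0.16, SE, adjusted p = 0.0093 in limma). Of the genes the study assigned to M phase, 23 of 61 were higher (37.7%, beside 9.26% of all genes) and 0 lower. Of those it assigned to G2, 2 of 44 were higher (4.5%, beside 9.26% of all genes) and 0 lower. After quantile normalization the M phase genes had 27 higher and 3 lower. The G2 genes had 3 higher and 7 lower, and the balance of calls over all genes turned the same way (10.8% higher, 17.9% lower).

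Among stress lists other than the p53 targets, the immediate early genes had 4 of 27 lower (14.8%, beside 3.46% of all genes) and 0 higher, and after quantile normalization 9 lower and 1 higher. The 4 were NR4A2, an orphan nuclear receptor, with -2.05, and the AP-1 genes JUN, JUND and FOSB, with -1.64, -1.32 and -0.80. The JUN call rested on a probe set that can bind several transcripts, and the other JUN probe sets differed by -0.95 and -0.11 and were not fitted. EGR1, singled out after its values were seen, read 13.79 at 0 h and 9.93 at 2 h, then between 8.91 and 9.90 from 4 to 10 h, and was not called (adjusted p = 0.167 in limma). The 0 h value stood apart from all later ones, as it did for SESN2.

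Targets of the amino acid stress factor ATF4 had 3 of 25 higher and 1 lower, with a median of 0.02, and after quantile normalization 2 higher and 2 lower. SLC3A2 and SLC7A5, the 2 chains of a large neutral amino acid transporter, rose by 1.03 and 0.92, while SLC7A11, the cystine transporter chain that pairs with SLC3A2, was lower by 1.61. SLC7A11 read 9.07 and 9.76 early and 7.74 and 7.88 late. It was the 1 lower call among 15 targets of the oxidative stress factor NRF2 (6.7%, beside 3.46% of all genes). Quantile normalization gave 6 lower and 1 higher among these 15, beside 17.9% and 10.8% of all genes. Endoplasmic reticulum chaperones had 3 of 17 higher (17.6%, beside 9.26% of all genes) and 0 lower: HSP90B1 (1.26), SDF2L1 (0.98) and HSPA5 (0.55). Both kept HSP90B1 probe sets are of the kind that can bind several transcripts. Heat shock chaperones had 2 of 17 higher (11.8%, beside 9.26% of all genes) and 0 lower, DNAJA1 (0.80) and HSPB1 (0.67). After quantile normalization the first of these lists had 4 higher and 0 lower and the second 3 higher and 1 lower.

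Of 24 cholesterol and fatty acid genes 3 were lower (12.5%, beside 3.46% of all genes) and 1 was higher, and after quantile normalization 10 were lower and 2 higher. INSIG1, the sterol-regulated anchor of SREBP, read 9.97 and 10.30 early and 8.62 and 8.44 late (difference -1.60 ± 0.20, SE, adjusted p = 0.0117 in limma), and STARD4, a sterol carrier, read 7.05 and 8.02 early and 6.02 and 6.00 late. MVK, mevalonate kinase, was lower by 1.03 and ACACA, the acetyl-CoA carboxylase gene, higher by 1.08. Hypoxia and glycolysis genes had 2 of 21 higher (9.5%, beside 9.26% of all genes), HILPDA (1.98) and PFKFB3 (0.82). After quantile normalization 3 were higher and 8 lower. Of 15 SRF and YAP targets, genes of the cytoskeleton and cell size, 1 was called higher (6.7%, beside 9.26% of all genes). It was SRF itself, higher by 1.04, and after quantile normalization 4 targets were higher and 2 lower. Of 5 kept NF-kB targets NFKB1 was higher by 1.80 and BIRC2 lower by 0.67. The lysosome and autophagy list (16 genes) and the interferon list (7 genes) had no call in limma, and their medians were -0.02 and -0.04. At an unadjusted p under 0.05 the first had 1 higher and 2 lower and the second 0 higher and 1 lower. After quantile normalization 5 and 2 of their genes were lower, beside 17.9% of all genes.

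Most genes at the extremes belonged to none of these lists. The 10 largest falls were CCNG2, LINC02941, VMP1, SNX8, PTGER3, CENPC, ANKRA2, AKR1E2, TCF19 and DNAJC6. VMP1, an autophagy protein, read 6.86 and 7.29 early and 4.00 and 3.88 late, and like CCNG2 it dropped between 6 and 7 h, from 6.21 to 3.85. TCF19, a factor expressed at G1/S, read 9.14 and 8.91 early and 6.46 and 6.58 late, and CENPC, an inner kinetochore protein, 8.75 and 9.40 early and 6.17 and 6.94 late.

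The 10 largest rises were JADE2, PRR5, KAZN, TLCD1, TTYH2, SOX8, CHD7, ADGRE2, FAM222A and SMG1P5, with differences of 3.06 to 3.69. JADE2, a histone acetylation cofactor, read 4.59 and 3.56 early and 7.85 and 7.67 late and had reached 7.66 by 6 h. FAM222A was the 1 of the 10 that had not moved before the later window. It read between 2.45 and 3.37 from 0 to 8 h, 5.33 at 9 h and 7.13 at 10 h, and between 2.54 and 2.86 on the 4 nocodazole arrays. Only its 9 and 10 h values reached the filter level of 5, so it was kept solely through the window where it was high. Early values of SOX8 and ADGRE2 were also low, with 0 and 2 h means of 3.61 and 3.73.

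The contrast did not use the 4 DMSO arrays between the windows. Most called differences had passed their midpoint on the mean of the 6, 7 and 8 h arrays, but not at 4 h. For each called gene, the share of its difference that the 6 to 8 h mean had reached was computed, where 0% is the 0 and 2 h mean and 100% the 9 and 10 h mean. Of 845 genes called higher 768 had reached at least 50%, with a median of 74.9%, against a median of 12.6% at 4 h. Of 316 called lower 269 had reached at least 50%, with a median of 72.8%, against 32.0% at 4 h. The same mean at 0 and 2 h enters both the difference and the share, so the share is a description.

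By list, the shares were as follows. The 11 lower p53 targets had a median of 70.1% and ranged from 8.7% (APAF1) to 119.2% (GDF15), with 9 of them at 50% or more. The 13 higher ribosome biogenesis genes had all reached at least 51.2% and none had passed 93.5%. The 18 higher mitotic genes had a median of 116.2%, and 13 of them had overshot the later window. APAF1, CDK1 (5.7%), CENPI (9.8%), STIL (25.6%) and RBL1 (27.4%) were genes whose fall came mostly after 7 h. CCNE2 stood at 225.3%.

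**Figure D4:**
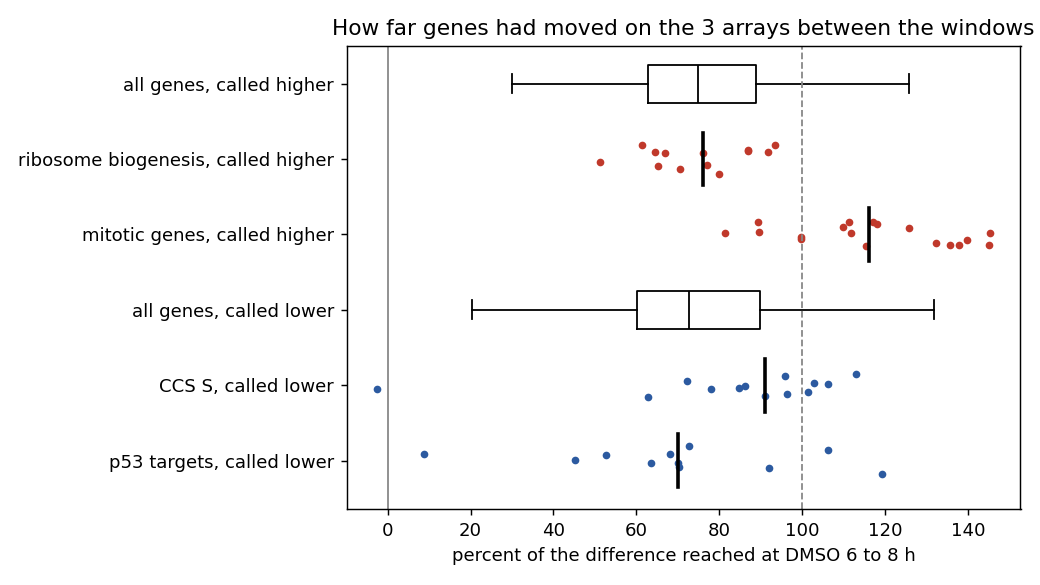
Percent of each called gene's difference reached at DMSO 6 to 8 h, with 0% at the 0 and 2 h mean (solid line) and 100% at the 9 and 10 h mean (dashed line). Points are genes of 4 lists with thick median bars. Boxes give the quartiles of all called genes, with whiskers to the last value within 1.5 box lengths and farther values not drawn. Mitotic genes centre at 116.2% and p53 targets at 70.1%.

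Nocodazole, which depolymerises microtubules and holds cells in mitosis, gave arrays of the same hours without division. On the nocodazole 9 and 10 h arrays 272 of the 316 lower genes lay below the 0 and 2 h mean, and 718 of the 845 higher genes lay above it. The same held for 10 of the 11 lower p53 targets, the exception being POLH, for all 13 higher ribosome biogenesis genes and for all 18 higher mitotic genes. CDKN1A read 12.33 and 12.22 there and MDM2 11.75 and 11.65, each below both early DMSO arrays. Over all 9130 genes the median of the nocodazole 9 and 10 h mean minus the 0 and 2 h mean was -0.24, so most genes lay below the early mean. The median of the 42 p53 targets was -0.81. These shares use the same 0 and 2 h arrays as the comparison itself. The nocodazole 9 and 10 h arrays had lower medians (8.39 and 8.28) than the DMSO arrays of the same hours and than those at 0 and 2 h (8.62 and 8.66). The part of the array median in these shares was not tested.

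Promoters of 3 called genes, picked by hand as examples, show letters that were searched for. They come from RefSeq on GRCh38.p14, run 5′ to 3′ on the gene's strand from 250 bases before the start to 50 after it, and are PLK1 (chr16:23678639-23678938, plus strand), RBL1 (chr20:37095948-37096247, minus strand) and PNO1 (chr2:68157638-68157937, plus strand). Capitals mark the CHR element TTTGAA and CCAAT in PLK1, the E2F letters in RBL1 and the E-box CACGTG in PNO1.
PLK1: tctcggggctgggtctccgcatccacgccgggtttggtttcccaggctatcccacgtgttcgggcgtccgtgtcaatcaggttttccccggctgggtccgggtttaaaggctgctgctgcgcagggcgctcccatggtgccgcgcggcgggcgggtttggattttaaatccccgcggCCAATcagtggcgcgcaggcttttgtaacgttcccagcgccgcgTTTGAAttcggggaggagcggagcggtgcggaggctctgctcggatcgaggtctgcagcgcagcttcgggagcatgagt
RBL1: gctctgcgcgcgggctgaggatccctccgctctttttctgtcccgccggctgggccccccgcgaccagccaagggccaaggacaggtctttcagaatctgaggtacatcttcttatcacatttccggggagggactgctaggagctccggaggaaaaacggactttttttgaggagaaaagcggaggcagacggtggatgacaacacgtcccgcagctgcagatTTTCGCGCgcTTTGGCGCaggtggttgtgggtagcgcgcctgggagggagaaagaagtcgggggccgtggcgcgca
PNO1: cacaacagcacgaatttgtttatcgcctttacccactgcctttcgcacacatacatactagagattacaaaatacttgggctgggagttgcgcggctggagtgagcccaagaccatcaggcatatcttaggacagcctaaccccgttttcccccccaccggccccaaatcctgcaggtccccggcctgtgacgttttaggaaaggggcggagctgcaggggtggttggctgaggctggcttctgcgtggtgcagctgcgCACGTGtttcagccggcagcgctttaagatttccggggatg
The CHR letters of PLK1 begin 29 bases before the start, the E2F letters of RBL1 at 26 and 16 bases before it, and the E-box of PNO1 10 bases after it.

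Both strands were searched and overlapping matches counted. No count was made for the G1/S list, to which RBL1 belongs. The CHR letters (TTTGAA) were in 15.6% of all 27305 promoters and 10.1% of those of kept genes, and in 8 of 15 promoters of the higher mitotic genes. CCAAT was in 35.6% of all promoters, 37.1% of those of kept genes and in 11 of those 15. The E2F letters (TTTGGCGC, TTTCCCGC, TTTGCCGC or TTTCGCGC) were in 3.3% of all promoters and 5.6% of those of kept genes, against 5.3% of those of genes called higher and 8.7% of those of genes called lower. The E-box (CACGTG), added after the data were seen, was in 7.3% of all promoters and 10.5% of those of kept genes, against 16.8% of those of genes called higher, 7.5% of those of genes called lower and 6 of 11 promoters of the higher ribosome biogenesis genes. Such matches describe letters and were given no test.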

How the data were processed

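Total RNA was profiled once per time and treatment. The deposited log2 values were made by the authors with GC-RMA. The log base was taken from their range, and the version and any later step are not given in the sources used here. Of 54675 probe sets, 41097 had 1 gene symbol in the platform annotation, 1801 several and 11777 none. Single-symbol probe sets that reached 5 (log2) on 2 or more arrays were kept (15030), and the brightest by mean over the 12 arrays stood for its gene (9130 genes). The 4 arrays were fitted with limma 3.58.1 in R 4.3.3 (lmFit, eBayes with an intensity trend, 2 residual and 4.3 prior degrees of freedom), with Benjamini-Hochberg adjustment over all genes and calls at 0.05. In simulated data on these genes, 7 of 100 changes of 1 and 66 of 100 changes of 2 (log2) were recovered, with 0 false calls. The simulated noise was independent between arrays, with no shift of a whole array and no trend over the hours. It therefore cannot show false calls that come from scaling or from drift between hours.

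The members and lists were chosen with earlier results of these data known. Of the 252 CCS genes, 226 were kept, 28 of them found through older symbols. Genes named were the 3 markers, the 10 largest differences each way and, by list, up to 4 called members or 2 uncalled ones, with 8 or 4 for the p53, deoxynucleotide and G1/S lists. Others (among them MDM2, APAF1, KITLG, CCND1, CDK1, MYC and the uncalled genes of called lists) were named after their values were seen. A called gene of the DNA damage and recombination list is not reported here. Replicate numbers pair no samples, since each array is a different hour. Arrays limit precision by their number.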

Additional observations from a re-analysis of the deposited data

Results flagged for a closer look

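The 18S ribosomal RNA control probe sets, which no comparison here used, averaged 8.32 (log2) on the DMSO 4 h array against 3.55 to 4.05 on the other DMSO arrays, so that array carried a signal in data outside the measured genes. It does not enter the comparison of the windows. The difference was not tested, since each hour has 1 array.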

How the results depend on the processing

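The number of calls moved with the setting. Total calls were 763 without the filter on low values, 1800 with the filter at a log2 value of 7, 1806 when a gene's probe sets were averaged, 2614 after quantile normalization and 3662 with arrays centred on their medians. Higher calls were 543, 1313 and 1441 in the first 3 of these settings, and lower calls 487 with the filter at 7, 1631 after quantile normalization and 2839 after centring. Leaving out 1 of the 4 arrays gave 0 to 1324 calls in all, 0 to 907 higher and 0 to 468 lower. For the lists it gave 0 to 11 lower p53 targets, 0 to 16 higher mitotic genes, 0 to 11 higher ribosome biogenesis genes and 0 to 3 lower CCS S genes, and the count was 0 in every case without the 9 h or the 10 h array. Quantile normalization with 1 of those 2 arrays left out, added after the data were seen, also gave 0.

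Lower p53 targets numbered 7 with all 8 DMSO arrays in the fit, 24 after quantile normalization and 27 after centring. Lower CCS S genes numbered 4 without the filter, 20 with robust eBayes, 22 with the filter at 7, 40 after quantile normalization and 47 after centring. Higher mitotic genes numbered 11 when the 4 h array joined the early window. In fits added after the data were seen, quantile normalization with all 8 DMSO arrays gave 1971 calls, 1182 of them lower, with 22 lower p53 targets and 37 lower CCS S genes. All 8 DMSO arrays without the 9 h array gave 331 calls, 305 higher and 26 lower, with 1 lower p53 target and 0 lower CCS S genes. Without the 10 h array they gave 0 of each.

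Of the 98 genes named by rule, 93 kept their side of the threshold and direction after quantile normalization and 73 with all 8 DMSO arrays. Signs changed for H1-2 after centring (-0.0027). Leaving out 1 array, the difference of HEXA ranged from -0.16 to 1.94 and that of IRF1 from -0.006 to 0.86, each below 0 without the 10 h array, and none of the 3 was called. The cause was not tested. No paired analysis was possible because each array is a different hour and the windows share no replicate. With 1 array per hour, 2 windows of 2 and low probe sets near background, small changes were not detectable. The phase of the cells was read here from RNA alone. The study also followed synchronized HCT116 cells by DNA flow cytometry after release, and those readings were not used here.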

Other observations

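Within the later window the arrays were farther apart than within the earlier one. The median absolute difference between the 10 h and 9 h arrays was 0.26 over the 9130 genes, against 0.15 between the 2 h and 0 h arrays, and the median signed difference was 0.25 against 0.01. The genes that the study assigned to M/G1 had 5 of 18 higher and 1 lower, and those it assigned to G1 3 of 29 higher and 0 lower, beside 9.26% and 3.46% of all genes. After quantile normalization the first had 8 higher and 2 lower and the second 6 higher and 3 lower. They included NUP98, a nucleoporin gene, with a difference of 1.28, CDKN3, a CDK phosphatase gene, with 1.28, and GRPEL1, a mitochondrial import cochaperone gene, with 1.62. CENPI, a kinetochore gene, was the lower one, with -1.17. On the nocodazole 9 and 10 h arrays CENPI read 6.87 and 6.79, between its DMSO values of 7.24 and 7.22 at 0 and 2 h and of 6.11 and 6.01 at 9 and 10 h.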
